A study of Mus musculus with 44 samples.

Results

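The genes described here are Atf4, which encodes the main transcription factor of the integrated stress response, its reported target genes of amino acid synthesis, amino acid transport and stress, and the cytosolic aminoacyl-tRNA synthetases. They were taken as 40 named rows of the deposited table, and all 40 were found among its 23234 genes. The choice was made from gene names and textbook knowledge, with earlier results of these data known. They fall into 8 regulators and stress effectors, 9 enzymes of amino acid and one-carbon synthesis, 8 amino acid transporter genes and 15 cytosolic synthetases.

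Poly(A) RNA was sequenced in cultures of mouse fetal liver iLS cells (induced leukocyte stem cells, strain C57BL/6J), multipotent blood progenitors kept from differentiating by Id3-ERT2, an inhibitor of E proteins that needs 4-hydroxytamoxifen (4-OHT). The cells grew on TSt-4 feeder cells, a mouse stromal line, with IL-7 at 20 ng/mL, SCF and Flt-3L at 10 ng/mL each and 4-OHT at 40 nM, and the 0 h libraries stand for that culture. All later libraries came from cells moved onto TSt-4 cells with IL-7 lowered to 5 ng/mL and without 4-OHT, a change meant to start B cell differentiation. Every library therefore carries Id3-ERT2, and later groups differ from 0 h in 4-OHT, in the amount of IL-7, in SCF and Flt-3L, which the labels do not name for the later medium, and in whatever the transfer itself did. There were 44 libraries at 16 time points: 3 each at 0, 0.5, 1, 2, 4, 6, 8, 10, 12, 24, 48, 72, 96 and 144 h, and 1 each at 120 and 168 h. The labels do not state whether replicates were separate cultures, so the p-values here speak only of the spread from library to library, which may be technical. Nor do they state whether TSt-4 cells were kept out of the RNA.

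When amino acids run short, or unfolded proteins collect in the endoplasmic reticulum, kinases phosphorylate the initiation factor eIF2. Bulk protein synthesis then slows while the ATF4 mRNA is translated more, so that ATF4 activity can rise with no change in its mRNA. ATF4 binds DNA as a dimer with C/EBP family partners at the C/EBP-ATF response element and raises genes that make, import and charge amino acids onto tRNA, together with Ddit3 (CHOP), Trib3 and Chac1. Dividing lymphoid progenitors use the same synthesis, transport and synthetase genes for growth, under Myc and mTORC1 as well as ATF4.

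The 250 bases before the annotated start of each gene were read from the RefSeq promoter table of build GRCm38.p6, which held 31 of the 40 members. Eif4ebp1, Cth, Slc7a5, Slc1a5, Cars, Lars, Nars, Wars and Hars had no entry. The deposited values were made on mm9, and no coordinate here comes from them. The core of the C/EBP-ATF response element, searched as TGATGNAA on both strands, lay in 8 of the 31 members (25.8%) and in 1056 of all 27025 genes of the table (3.91%). Those members were Chac1, Slc7a11, Asns, Pycr1, Aars, Gars, Tars and Vldlr, and Slc7a11 held it at 2 places, once on each strand. The E-box CACGTG, the site type of Myc family factors, lay in 3 of the 31 members (9.7%), Aars, Aldh18a1 and Iars, against 6.86% of all genes. The endoplasmic reticulum stress element, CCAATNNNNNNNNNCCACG, lay in 0 of the 31 members and in 35 genes of the table (0.13%). A match is a description of letters, not evidence of binding. In lower case, 5′ to 3′ on the gene's strand, the following 6 stretches show the core in capitals on either strand, first for 2 genes whose products handle cystine and glutathione, then for asparagine synthetase and 3 tRNA synthetases. They lie at chr3:50443614-50443863 (minus strand), chr2:119350992-119351241 (plus), chr6:7693210-7693459 (minus), chr6:55037751-55038000 (plus), chr8:111033592-111033841 (plus) and chr15:11399659-11399908 (minus).

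Slc7a11: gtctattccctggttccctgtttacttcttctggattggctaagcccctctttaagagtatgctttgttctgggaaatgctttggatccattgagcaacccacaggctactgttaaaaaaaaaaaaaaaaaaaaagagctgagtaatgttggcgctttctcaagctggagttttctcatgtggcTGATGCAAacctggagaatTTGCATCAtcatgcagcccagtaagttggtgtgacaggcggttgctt

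Chac1: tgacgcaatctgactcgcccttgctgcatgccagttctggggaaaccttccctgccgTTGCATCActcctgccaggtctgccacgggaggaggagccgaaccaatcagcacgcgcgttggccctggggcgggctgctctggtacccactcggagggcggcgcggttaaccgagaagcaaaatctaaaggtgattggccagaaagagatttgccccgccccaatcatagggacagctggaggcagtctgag

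Asns: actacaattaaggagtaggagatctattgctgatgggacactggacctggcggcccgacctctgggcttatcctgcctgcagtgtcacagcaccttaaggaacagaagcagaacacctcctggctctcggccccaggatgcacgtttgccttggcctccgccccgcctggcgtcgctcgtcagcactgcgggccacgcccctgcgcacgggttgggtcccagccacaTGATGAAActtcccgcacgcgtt

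Gars: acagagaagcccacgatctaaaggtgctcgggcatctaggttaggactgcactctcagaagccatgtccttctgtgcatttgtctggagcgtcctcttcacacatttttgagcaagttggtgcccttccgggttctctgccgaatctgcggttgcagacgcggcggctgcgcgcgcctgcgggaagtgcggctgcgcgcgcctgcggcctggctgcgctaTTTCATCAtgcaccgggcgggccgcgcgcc

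Aars: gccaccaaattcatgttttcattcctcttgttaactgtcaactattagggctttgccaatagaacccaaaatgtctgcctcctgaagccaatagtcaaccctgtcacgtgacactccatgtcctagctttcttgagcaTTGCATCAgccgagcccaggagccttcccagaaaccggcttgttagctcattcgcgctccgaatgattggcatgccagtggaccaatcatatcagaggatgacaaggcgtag

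Tars: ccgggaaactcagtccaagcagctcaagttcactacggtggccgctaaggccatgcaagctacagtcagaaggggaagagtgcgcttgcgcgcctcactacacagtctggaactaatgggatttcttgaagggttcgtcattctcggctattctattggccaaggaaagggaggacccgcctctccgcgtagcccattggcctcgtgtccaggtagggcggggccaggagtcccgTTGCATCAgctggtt

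The distance from the core to the start differed widely among these genes. In Slc7a11, the cystine transporter gene, its letters run from 66 to 59 and from 47 to 40 bases before the start. In Tars they end 8 bases before it, in Asns 16 and in Gars 23. In Aars the core spans bases 112 to 105 before the start, with the E-box at 146 to 141, and in Chac1 it spans 193 to 186. Values for these 6 genes follow in their groups.

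The values are FPKM, fragments scaled to transcript length and to the mapped total, so levels can be compared between genes. Summed FPKM lay between 516025 and 701705 per library, and 11520 to 12316 genes reached 1 FPKM. The file holds no counts, so the read depth is unknown. Differences were tested with limma on log2(FPKM + 1), a scale that understates changes of low genes, in the 42 libraries of the 14 time points with 3 libraries each. A gene is called higher or lower at a Benjamini-Hochberg adjusted p under 0.05 over 13907 genes tested. The levels of cell type marker genes changed at the same time. The 23 listed genes of stromal feeder cells, such as collagens and fibronectin, summed to 714 to 2273 FPKM in the 0 h libraries, 5853 to 8541 at 1 h, 9034 to 10779 at 6 h, 7494 to 9088 at 24 h, 4789 to 8570 at 72 h and 1870 to 3123 at 144 h. Only Lum of that list was listed at 0 in all 44 libraries. The 18 general blood-cell genes, such as Ptprc and Coro1a, summed to 1983 to 2679, 919.8 to 1208, 720.4 to 779, 272 to 746, 858 to 1365 and 1566 to 1800 FPKM at the same times. The library labelled 24 h replicate 3 stood apart, with the lowest blood-cell sum of all 44. The progenitor genes Flt3 and Kit stood at 145 ± 5.82 and 22.9 ± 5.61 FPKM in the 0 h libraries (SD, n = 3). At 144 h they stood at 26.4 ± 5.59 and 18.3 ± 1.57, and Cd34 went from 252 ± 66.7 (0 h) to 63.7 ± 25.3 (144 h). The 10 listed stem and multipotent progenitor genes, which include Flt3, Kit and Cd34, summed to a mean of 581 FPKM (0 h), 510 (6 h) and 900 (144 h). The higher sum at 144 h came from other genes of that list. Of the 8 tested, 2 were called higher and 3 lower by 144 h. The B-lineage gene Cd79a went from 16.2 ± 7.36 FPKM (0 h) to 198 ± 41.8 (144 h). The 12 listed B-lineage genes had mean sums of 174 FPKM (0 h), 43.5 (6 h) and 1443 (144 h), so their RNA was already present before the transfer. In such bulk RNA, fewer cells of a type and less RNA per cell cannot be told apart.

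**Figure D1:**
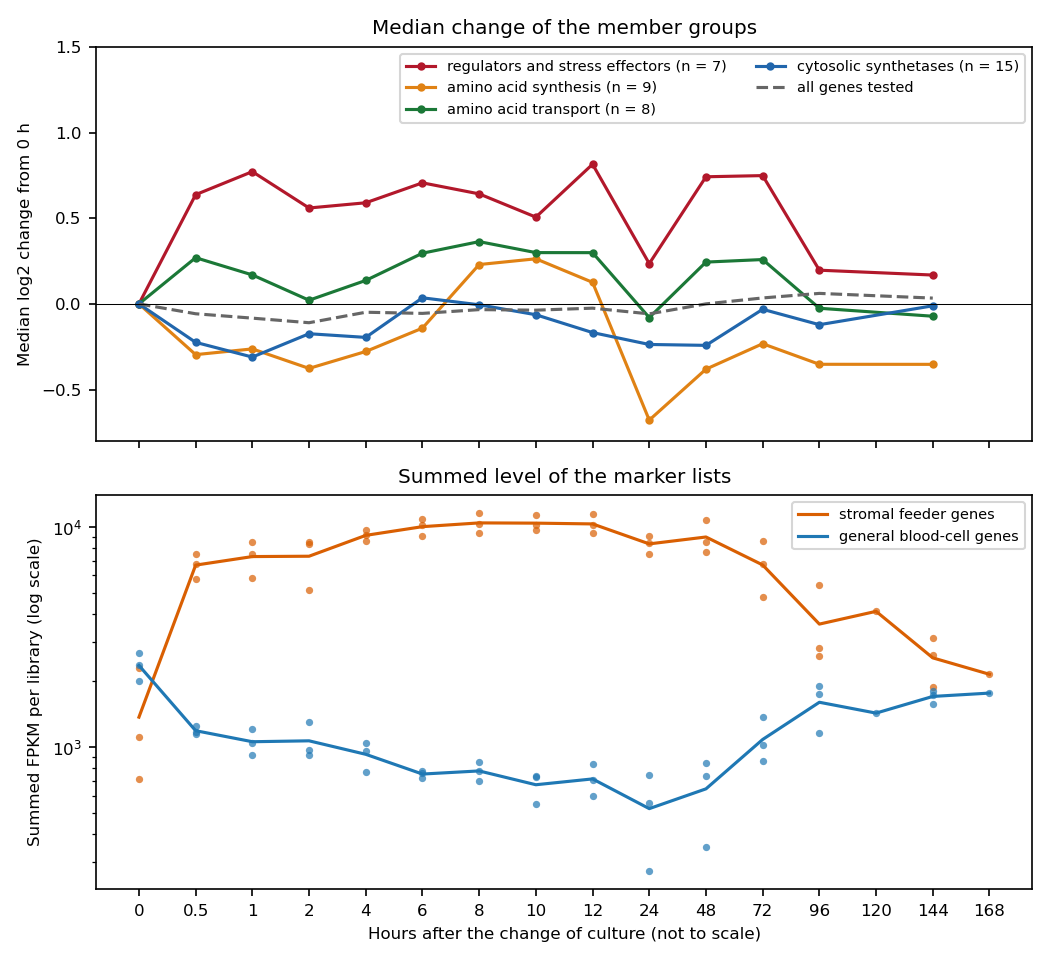
Upper panel: median log2 change from 0 h on the log2(FPKM + 1) scale of the tested members of each group and of all genes tested, against time (not to scale). Lower panel: summed FPKM of the stromal feeder and general blood-cell lists per library (points) with time-point means (lines), on a log axis. The regulators lie above the other groups from 0.5 to 72 h, while the stromal sum is several times its 0 h level and the blood-cell sum is below its own.

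Of the 40 members, 39 passed the filter of 1 FPKM in 3 libraries. The exception was Vldlr, a lipoprotein receptor gene, listed at 0 in 43 of 44 libraries and at 0.0924 FPKM in the other. Median levels over the 44 libraries ran from 4.39 FPKM for Cth (cystathionine gamma-lyase, of cysteine synthesis) to 178 for Atf4. Shmt2, the mitochondrial serine hydroxymethyltransferase, had a median of 119 FPKM, Phgdh, the first enzyme of serine synthesis, 110, and Ddit3 92.7. Among the synthetases the median ran from 24.9 FPKM for Lars to 85.2 for Kars. Pycr1, of proline synthesis, Slc7a11 and Slc6a9, a glycine transporter, stayed low, at medians of 4.44, 6.25 and 6.74 FPKM.

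The highest mean level fell between 6 and 12 h for 18 of the 39 members, at 0 h for 11, between 24 and 72 h for 5, at 96 or 144 h for 3 and between 0.5 and 4 h for 2. None of the 7 regulators and stress effectors had its highest mean at 0 h, and 4 of them had their lowest there. Of the 15 synthetases 7 were highest at 6 to 12 h, 5 at 0 h and 3 (Eprs, Dars and Kars) at 96 or 144 h. The ratio of the highest to the lowest mean was 5.43 for Ddit3, 3.82 for Chac1, 2.94 for Slc1a5, 2.34 for Slc7a11 and 2.09 for Tars. It was 1.23 for Eprs, the bifunctional glutamyl-prolyl synthetase, and 1.44 for Gars.

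**Figure D2:**
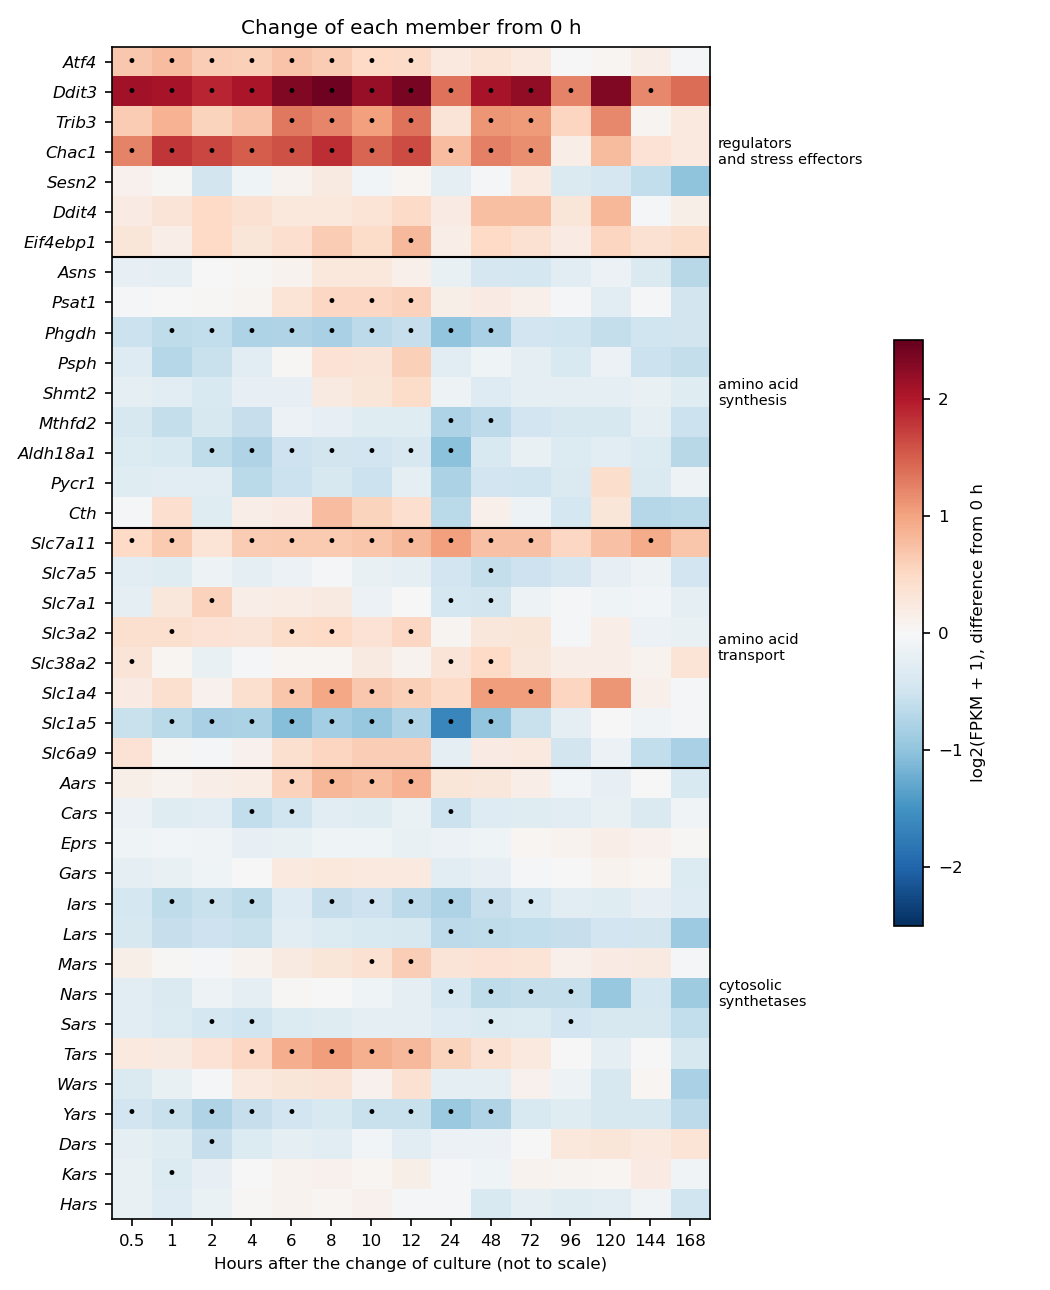
Difference of each member's time-point mean from its 0 h mean on the log2(FPKM + 1) scale, with members in rows by role and the time points after 0 h in columns. Dots mark calls, and 120 and 168 h are single libraries that were not tested. Ddit3 and Chac1 are above 0 h in every column, Slc1a5 and Phgdh are below it through 96 h, and Tars and Aars stand highest between 6 and 12 h.

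By the F test of limma over all 13 later time points, 25 of the 39 members (64.1%) differed from 0 h, beside 56% of all genes tested. The counts were 5 of 7 regulators and stress effectors, 4 of 9 synthesis genes, 7 of 8 transporter genes and 9 of 15 synthetases. Sesn2, Psph, Shmt2, Slc6a9 and Gars passed this test without a call at any single time point. Phgdh, Mthfd2, Slc7a5, Cars, Lars, Sars and Eif4ebp1 have calls at single time points but did not pass it. Their adjusted p by the F test were 0.113, 0.222, 0.282, 0.0719, 0.441, 0.241 and 0.54. With the mean log2 level of the stromal genes as a covariate the number of members passing was 14, beside 27.1% of all genes.

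At single time points the share of members called was mostly near the share of all genes. At 0.5 h 5 members were higher and 1 lower of 39, while 14.3% and 7.29% of all genes were. At 1 h 5 were higher and 5 lower (16.8% and 15.3% of all genes). At 2 h the counts were 4 and 7 (16.5% and 18.5%) and at 4 h 5 and 7 (18% and 17%). At 6 h they were 9 and 5 (19% and 19.2%). The 8 h counts were 10 and 4 (20.4% and 19.2%) and the 10 h counts 10 and 5 (21.1% and 20.5%). At 12 h 12 and 5 were called (21.6% and 20.3%). At 12 h, the time with the most members called higher, that is 30.8% of the 39 against 21.6%, and 12.8% against 20.3%. At 24 h 5 were higher and 10 lower (20.8% and 22.5% of all genes), and at 48 h 7 and 10 (22% and 16.4%). At 72 h the counts were 5 and 2 (17.2% and 8.23%), at 96 h 1 and 2 (7.79% and 2.49%) and at 144 h 2 and 0 (5.64% and 3.24%), with 7 lower at an unadjusted p under 0.05. Between later times, by limma, 0 were higher and 1 lower at 24 h against 6 h (0.964% and 1.11% of all genes). At an unadjusted p under 0.05 these were 2 and 15 members. For these, as for the 7 at 144 h, no share of all genes was computed at that threshold. At 144 h against 24 h 5 were higher and 1 lower (17.4% and 15.6% of all genes). Single libraries moved some of these counts by over 1.5 times. The number lower at 1 h was 1, 3 and 10 without 1 h replicates 1, 2 and 3. Those fits called 3489 (1987 of them higher), 3241 (1894) and 4288 (2311) of all genes, against 4466 (2341) with all libraries. At 6 h the number lower was 3 without 6 h replicate 2, with 4433 of all genes called (2287 of them higher). The number higher at 24 h was 3 without 0 h replicate 1 or 2 or 24 h replicate 1 or 2, and 8 without 24 h replicate 3. At 72 h the number higher was 3 without 72 h replicate 3. The number lower was 1 without 0 h replicate 3 or 72 h replicate 2 or 3. In that order these fits called 3306 (2300 of them higher), 2836 (2056) and 2294 (1765) of all genes, against 3533 (2389) with all libraries. The number higher at 144 h was 1 without 0 h replicate 1 or 2 or 144 h replicate 1 or 3. Of all genes these fits called 343, 469, 675 and 423 higher, against 785 with all libraries. At 24 h against 6 h the number lower was 2 without 24 h replicate 1 and 4 without 24 h replicate 2. Of all genes 354 (124 of them higher) and 407 (156) were called then, against 289 (134) with all libraries.

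The roles differed in direction. No regulator or stress effector was called lower than at 0 h at any time point in this fit, and no synthesis gene was called higher before 8 h. At 1 h the median log2 change was 0.77 for the 7 regulators and stress effectors, -0.26 for the 9 synthesis genes, 0.17 for the 8 transporter genes and -0.31 for the 15 synthetases, with -0.08 over all genes tested. At 6 h these medians were 0.71, -0.14, 0.30 and 0.04, with -0.06 over all genes. At 24 h they were 0.24, -0.68, -0.08 and -0.24, again with -0.06 over all genes. With the library-code run as a block (consecutive codes in the labels) the 24 h medians were 0.30, -0.29, 0.02 and -0.23. With the stromal mean as a covariate the regulators' medians turned negative, at -0.10 (1 h), -0.28 (6 h) and -0.75 (24 h). Scaling to the blood-cell genes moves the median of all genes to 0.77 (1 h), 1.22 (6 h) and 1.76 (24 h), and the group medians for 24 h were then 2.40, 1.40, 1.99 and 1.93. Relative to all genes the regulators stayed highest and the synthesis genes lowest under that scaling. No difference between the groups of genes was tested.

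Atf4 mRNA, the abundant transcript of the central factor, was higher early and returned toward its starting level. It was at 112, 124 and 151 FPKM in replicates 1, 2 and 3 (0 h), at 207, 221 and 229 (1 h), and at 195, 213 and 221 (6 h). All libraries from 0.5 to 12 h lay above all 3 libraries of 0 h. The log2 change was 0.68 ± 0.15 at 0.5 h (SE; adjusted p = 0.0012, limma), 0.77 ± 0.15 at 1 h (adjusted p = 0.0002) and 0.71 ± 0.15 at 6 h (adjusted p = 0.00038). It was called higher at each time point from 0.5 to 12 h and at none later. The 24 h libraries stood at 138, 180 and 137 FPKM, the 72 h libraries at 136, 146 and 175, and the 144 h libraries at 138, 161 and 134. At each of these times the libraries overlap those of 0 h. The library codes in the labels form 6 consecutive runs, whose meaning is not given. Within the runs that hold both times, the 1 h change of Atf4 was 0.88 for replicate 1, 0.83 for replicate 2 and 0.60 for replicate 3. No run holds both 0 h and 72 or 144 h libraries.

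Ddit3, which encodes CHOP, a stress factor that dimerises with C/EBP proteins, showed the largest rise of the members. It was at 16.8, 18.7 and 32.9 FPKM at 0 h, then 86.1, 115 and 84.3 (1 h) and 120, 121 and 98.3 (6 h). Every library of 1, 6, 72 and 144 h lay above every 0 h library. The log2 change was 2.06 ± 0.34 at 1 h (SE; adjusted p = 2.08e-05, limma) and 2.31 ± 0.34 at 6 h (adjusted p = 2.15e-06). At 24 h the libraries spread from 31.1 (replicate 3) to 58.7 and 103 FPKM, so that 1 of them overlapped 0 h, and the change was 1.36 ± 0.34 (adjusted p = 0.00158). Levels were 77.4, 131 and 116 FPKM at 72 h (2.22 ± 0.34, adjusted p = 1.01e-05) and 54.6, 36.7 and 68.9 at 144 h (1.21 ± 0.34, adjusted p = 0.0209). The 1, 6, 24 and 72 h calls held without any single library, and the 144 h call was lost without 0 h replicate 1 or 2 or without 144 h replicate 1 or 3, with log2 changes of 1.00 to 1.17. Within the code runs the 1 h change was 2.29, 2.55 and 1.33 for replicates 1, 2 and 3. Exons of Ddit3 share 68 bases with Mars on the other strand in GENCODE M21, and the library kit does not mark strand.

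Chac1, whose product degrades glutathione and which is a sensitive ATF4 and CHOP target, followed a like course at a lower level. It stood at 6.42, 8.62 and 11.3 FPKM at 0 h, then 30.3, 33.3 and 32.8 (1 h), and 25.4, 31.7 and 26.5 (6 h). The groups do not overlap at either time, and the log2 changes were 1.79 ± 0.30 (SE; adjusted p = 2.66e-05, limma) and 1.59 ± 0.30 (adjusted p = 8.58e-05). At 24 h it was at 22.8, 19.0 and 8.11 FPKM, with replicate 3 inside the 0 h range (0.77 ± 0.30, adjusted p = 0.0378), a call lost without 0 h replicate 1 or 2 or without 24 h replicate 1 or 2 (0.50 to 0.77) and at 1.19 without 24 h replicate 3. At 72 h it was at 13.2, 21.8 and 29.3 FPKM (1.16 ± 0.30, adjusted p = 0.00408), a call lost without 72 h replicate 3 (0.91). At 144 h the libraries lay between 9.76 and 12.8 FPKM and overlapped 0 h, and the difference of 0.36 ± 0.30 did not pass (adjusted p = 0.555).

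Trib3, a pseudokinase gene that CHOP and ATF4 switch on and that restrains ATF4, was called from 6 to 12 h and again at 48 and 72 h. It was at 3.43, 12.7 and 14.7 FPKM at 0 h, then 16.0, 20.0 and 15.4 (1 h), 22.3, 31.6 and 18.2 (6 h) and 13.6, 21.1 and 26.2 (72 h). Replicate 1 of 0 h was far below the other 0 h libraries, and the 1 h and 6 h libraries lay above all of 0 h. The 1 h difference of 0.87 ± 0.37 did not pass (SE; adjusted p = 0.0663, limma), and it was 0.29 without 0 h replicate 1 (adjusted p = 0.58) and passed without 0 h replicate 2 (1.11) or 3 (1.21), and the 6 h change was 1.31 ± 0.37 (adjusted p = 0.00477). Without 0 h replicate 1 the 6 h change was 0.73 and was not called. The 72 h call (1.06 ± 0.37, adjusted p = 0.0296) was lost without 0 h replicate 1 (0.49), 72 h replicate 2 (1.02) or 72 h replicate 3 (0.86), and it rests on overlapping libraries. At 24 h the libraries were at 14.3, 16.6 and 6.00 FPKM and at 144 h between 6.79 and 11.4, with no call.

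Eif4ebp1, the translation inhibitor 4E-BP1, was called once, at 12 h (log2 change 0.82, adjusted p = 0.026, limma), when it stood at 83.3, 125 and 96.8 FPKM against 50.2, 52.0 and 69.5 (0 h). Sesn2 and Ddit4, both inhibitors of mTORC1, were called at no single time point against 0 h. Sesn2 ranged from 7.04 to 25.0 FPKM over the 44 libraries and Ddit4 from 28.0 to 121.

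**Figure D3:**
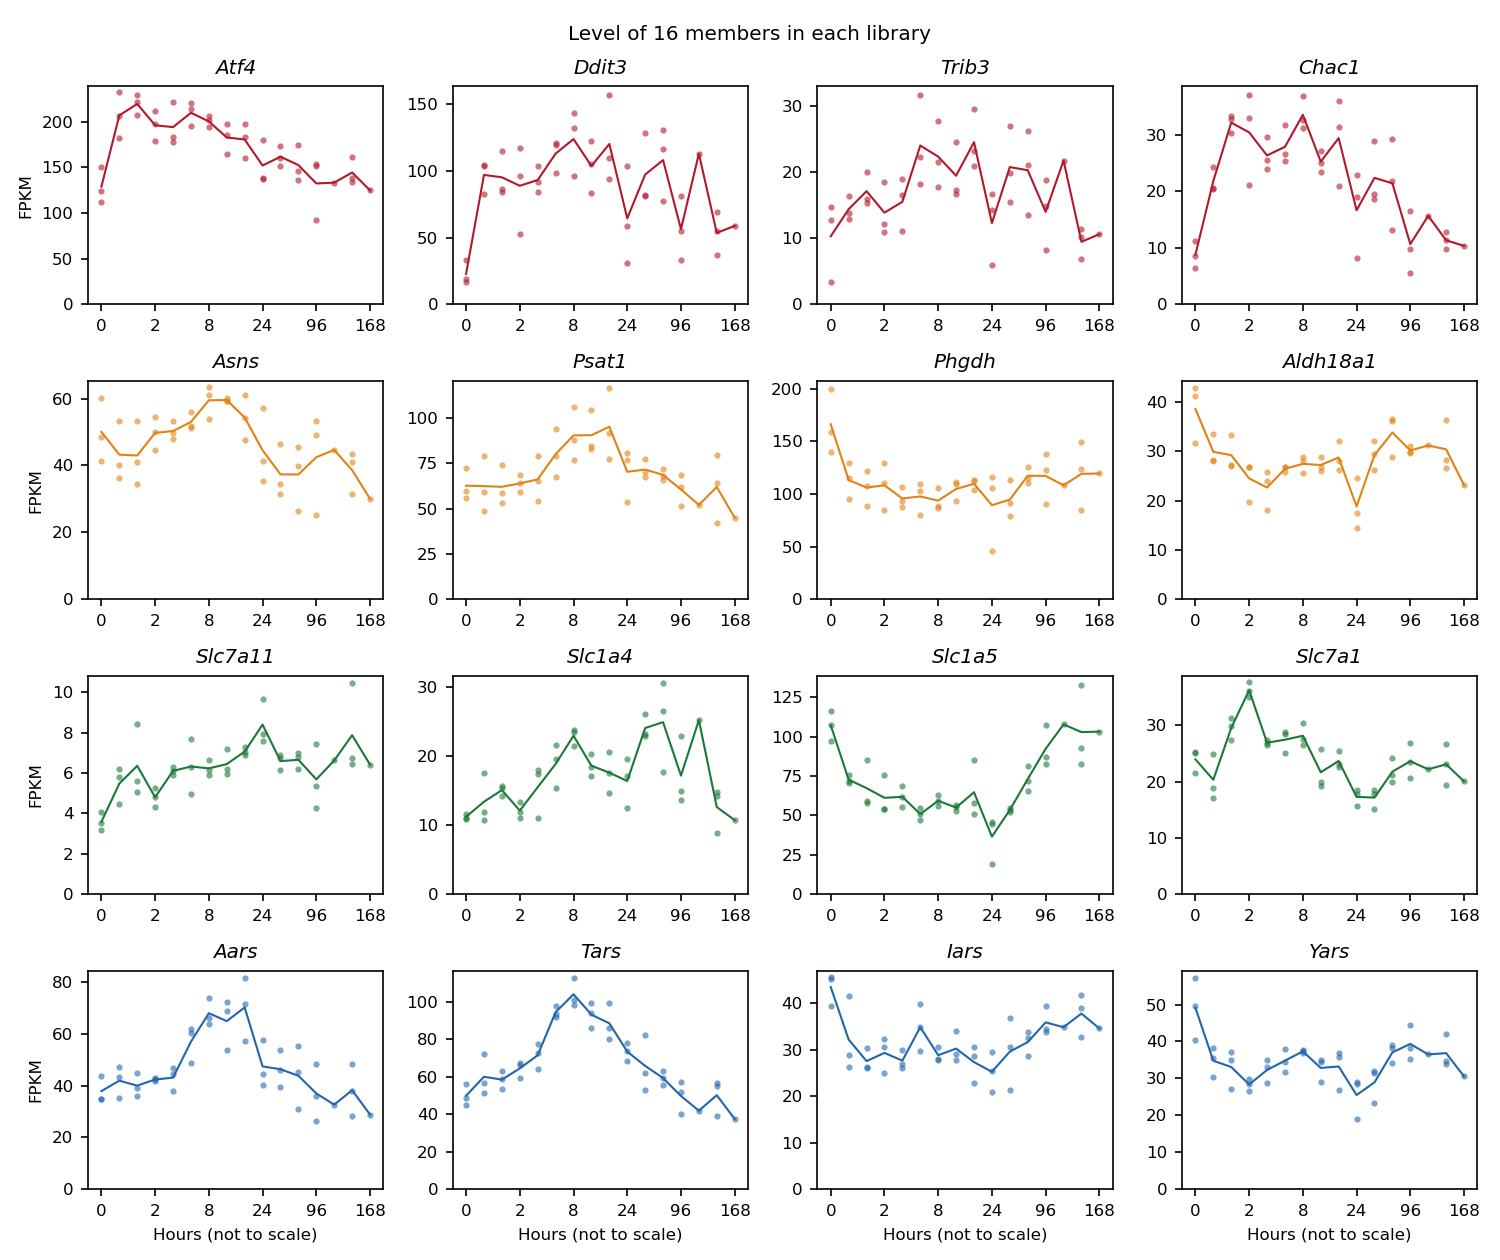
FPKM of 16 members in each library (points) against time after the culture change (not to scale), with lines through time-point means; colours mark role (regulators, synthesis, transport, synthetases, from the top row down). Ddit3 starts at 16.8 to 32.9 FPKM and is above that range in every later library except 24 h replicate 3, at 31.1, and Slc1a5 has its lowest mean at 24 h.

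The marker lists changed at the same times. At 1, 6, 24 and 72 h all 21 tested stromal genes were higher than at 0 h (medians 2.53, 2.60, 2.60 and 2.34 on the log2 scale) and 15, 17, 18 and 14 of the 18 blood-cell genes were lower. A fit with the stromal mean as covariate, which itself follows time, was also made. In it the changes at 1 h were 0.35 for Atf4, -0.10 for Ddit3 and 0.37 for Chac1 (adjusted p = 0.88, 0.99 and 0.94, limma), and none of the 7 regulators was called at 1, 6, 24, 72 or 144 h. That fit called 0.144% of all genes higher at 1 h, 0.0575% (6 h), 0.036% (24 h), 0.0216% (72 h) and 2.06% (144 h). At 144 h the stromal genes were back to a median of 0.94 with 8 of 21 called. After scaling to the blood-cell genes these 1 h changes were 1.88, 3.09 and 2.71, all called, and all 7 regulators were called higher at 1, 6, 24 and 72 h, as were 48.3%, 70.7%, 80.3% and 59.6% of all genes. The part of feeder cells in these results was not tested.

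Partners and upstream genes of ATF4, from lists written from textbook knowledge, rose or fell at different times. Lists share genes (Atf5, Cebpb and Nupr1 stand also among the other reported targets). Of the 9 partner and related factor genes 7 were higher and 1 lower at 1 h, 6 and 1 (6 h), 6 and 1 (24 h), 7 and 0 (72 h) and 1 and 0 (144 h). Of all genes tested 16.8% were higher and 15.3% lower at 1 h, 19% and 19.2% (6 h) and 20.8% and 22.5% (24 h). The later shares were 17.2% and 8.23% (72 h) and 5.64% and 3.24% (144 h). Atf3, an immediate stress-induced repressor, went from 1.43 ± 1.26 FPKM at 0 h to 69.2 ± 39.2 at 1 h (SD, n = 3) and was back at 7.15 ± 2.34 at 6 h, with log2 changes of 4.81 ± 0.40 and 1.84 ± 0.40 (SE; adjusted p = 1.88e-10 and 0.000435, limma). Cebpb, a C/EBP partner, rose by 1.79 ± 0.30 at 1 h and 1.18 ± 0.30 at 6 h (adjusted p = 2.46e-05 and 0.00194). Atf5, itself a target of the same pathway, rose by 0.99 ± 0.32 at 1 h and 1.64 ± 0.32 at 72 h (adjusted p = 0.0191 and 0.000261). Nupr1, a stress-induced chromatin protein gene, rose by 1.18 ± 0.24 at 1 h and 2.08 ± 0.24 at 6 h (adjusted p = 0.00034 and 5e-08). Cebpg, the C/EBP partner that pairs with ATF4 on amino acid genes, fell by 0.74 ± 0.18 at 1 h (adjusted p = 0.00243) and by 0.61 ± 0.18 at 24 h (adjusted p = 0.00808), and it was higher at 144 h than at 24 h by 0.71 ± 0.18 (adjusted p = 0.00322).

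Of the 14 genes of eIF2, its kinases, its exchange factor and its phosphatase, 2 were higher and 0 lower at 1 h and at 6 h, and 2 and 2 (24 h). The shares of all genes were 16.8% and 15.3% (1 h), 19% and 19.2% (6 h) and 20.8% and 22.5% (24 h). Ppp1r15b, the constitutive phosphatase subunit, rose by 0.64 ± 0.15 at 1 h (SE; adjusted p = 0.0019, limma). Eif2ak2 (PKR), an interferon-induced kinase, rose by 0.57 ± 0.21 at 1 h and 1.26 ± 0.21 at 72 h (adjusted p = 0.04 and 3.7e-05). Ppp1r15a (GADD34), the inducible subunit and itself an ATF4 target, was at 18.1 ± 2.87 FPKM at 0 h and 55.5 ± 3.65 at 0.5 h (SD, n = 3), and its mean was 27.9 ± 11.9 after 1 h and 9.47 ± 4.54 after 24 h. It rose by 1.57 ± 0.31 at 0.5 h (adjusted p = 0.000299), the 1 h difference of 0.51 ± 0.31 did not pass (adjusted p = 0.221), and at 24 h it fell by 0.98 ± 0.31 (adjusted p = 0.0112). Eif2ak3 (PERK), the kinase of the endoplasmic reticulum, fell by 0.59 ± 0.22 at 24 h (adjusted p = 0.0316). Eif2ak4 (GCN2), the sensor of uncharged tRNA, passed none of the comparisons, with means between 10.7 and 14.3 FPKM over the replicated time points.

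Of the genes of amino acid and one-carbon synthesis, some fell in the first day and Psat1 rose around 12 h. The others had no call at any single time against 0 h. Phgdh, the entry enzyme of serine synthesis, was at 200, 140 and 159 FPKM at 0 h, then 108, 88.4 and 122 (1 h), 103, 80.3 and 110 (6 h) and 116, 106 and 46.1 (24 h). Each of these later libraries lay below every 0 h library. The log2 changes were -0.64 ± 0.24 at 1 h (SE; adjusted p = 0.0375, limma), -0.76 ± 0.24 at 6 h (adjusted p = 0.0111) and -0.98 ± 0.24 at 24 h (adjusted p = 0.00113). The 1 h call was lost without 0 h replicate 1 or 3 or without 1 h replicate 1 or 2 (-0.50 to -0.66), and the 6 h call without 0 h replicate 1 or 6 h replicate 2 (-0.62 and -0.63). The 24 h change was -0.56 without 24 h replicate 3, and still called (adjusted p = 0.034). At 72 h Phgdh was at 126, 115 and 111 FPKM, below 0 h without passing (-0.49 ± 0.24, adjusted p = 0.137). At 144 h it was at 124, 149 and 84.4 FPKM, overlapping 0 h, and the difference of -0.50 ± 0.24 did not pass (adjusted p = 0.208).

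Psat1, the next enzyme of serine synthesis, moved the other way around 12 h. It was at 55.9, 59.8 and 72.5 FPKM at 0 h, then 53.2, 58.7 and 74.4 (1 h), 67.3, 79.0 and 94.1 (6 h) and 77.3, 91.8 and 117 (12 h). The 12 h libraries lay above all of 0 h, those of 1 and 6 h did not. It was called higher at 8, 10 and 12 h (log2 changes 0.52, 0.52 and 0.58, adjusted p = 0.042, 0.038 and 0.021, limma) and at no other time. It stood at 80.7, 77.0 and 53.5 FPKM at 24 h, then 72.0, 65.8 and 68.2 (72 h) and 64.3, 79.6 and 42.1 (144 h), overlapping 0 h each time. Psph, which completes serine synthesis, was called at no single time against 0 h, where its libraries ran from 19.4 to 38.6 FPKM. Its exons share 452 bases with Cct6a on the other strand.

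Mthfd2, the mitochondrial folate enzyme, fell at 24 and 48 h. It was at 40.5, 58.3 and 47.7 FPKM at 0 h and 35.5, 36.2 and 16.7 (24 h), with no overlap. The 24 h change was -0.77 ± 0.24 (SE; adjusted p = 0.0107, limma), and it was lost without 0 h replicate 2 (-0.64) or 24 h replicate 3 (-0.42). At 1 h it was at 26.7, 29.8 and 39.9 FPKM, all below 0 h (-0.59 ± 0.24, adjusted p = 0.0612, called without 1 h replicate 3 at -0.75), and at 6 h at 40.6, 45.9 and 44.7. The 72 h libraries were at 27.7, 33.8 and 43.7 FPKM and the 144 h libraries at 37.6, 56.6 and 31.2, with no call. Aldh18a1, the first enzyme of proline synthesis, went from 41.2, 31.6 and 42.8 FPKM at 0 h to 26.7, 26.7 and 25.8 (6 h) and 17.5, 24.5 and 14.4 (24 h). Neither later group overlaps 0 h. It fell by 0.52 ± 0.16 at 6 h (adjusted p = 0.0108), a call lost without 0 h replicate 1 or 3 (-0.46 and -0.44), and by 1.02 ± 0.16 at 24 h (adjusted p = 5.35e-06), which no single library decided.

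Asns, asparagine synthetase and the classic amino acid response gene, passed no comparison with 0 h. It stood at 41.3, 48.6 and 60.2 FPKM at 0 h, then 41.2, 34.4 and 53.4 (1 h), 51.9, 51.1 and 56.1 (6 h), 35.2, 57.0 and 41.4 (24 h), 26.3, 45.6 and 39.9 (72 h) and 31.4, 43.5 and 41.0 (144 h). All of these groups overlap. Over the 13 later times its log2 difference ran from -0.43 ± 0.22 at 72 h to 0.26 ± 0.22 at 10 h (SE; adjusted p = 0.159 and 0.361, limma). Its upstream stretch above holds the core as TGATGAAA. Shmt2, Pycr1 and Cth also had no call at a single time against 0 h. Shmt2 ran from 81.4 to 198 FPKM over the 44 libraries, Pycr1 from 1.02 to 7.57 and Cth from 0.736 to 10.6. With the stromal mean as a covariate the 24 h differences were -1.0 for Aldh18a1, -0.67 for Mthfd2 and -0.26 for Phgdh, none called (adjusted p = 0.24, 0.65 and 0.88). Blood-cell scaling turned them positive, at 1.14, 1.40 and 1.24, each below the 1.76 of the median gene.

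Among amino acid transporters, genes moved in both directions. Slc7a11, the cystine and glutamate exchanger, was at 3.18, 4.08 and 3.5 FPKM at 0 h, then 8.4, 5.07 and 5.59 (1 h), 7.69, 6.30 and 4.97 (6 h) and 9.66, 7.61 and 7.92 (24 h). At each of these times, and in the 72 h (6.18 to 6.99 FPKM) and 144 h (6.44 to 10.5) libraries, it was above all of 0 h. The log2 changes were 0.66 ± 0.18 at 1 h (SE; adjusted p = 0.00512, limma), 0.66 ± 0.18 at 6 h (adjusted p = 0.00373), 1.03 ± 0.18 at 24 h (adjusted p = 2.09e-05), 0.74 ± 0.18 at 72 h (adjusted p = 0.00216) and 0.93 ± 0.18 at 144 h (adjusted p = 0.000822). The 1 h call was lost without 1 h replicate 1 (0.47), and the other 4 held without any single library. At 144 h it was also called with the stromal mean as a covariate (0.85, adjusted p = 0.022) and scaled to the blood-cell genes (1.15). Slc3a2, the shared heavy chain of Slc7a11 and Slc7a5, was at 53.8, 58.4 and 71.9 FPKM at 0 h and 77.1, 88.9 and 88.0 (6 h). These do not overlap (0.47 ± 0.16, adjusted p = 0.0179), though the call was lost without 0 h replicate 1 or 2 or 6 h replicate 2 or 3 (0.38 to 0.44), and the 1 h call (0.41 ± 0.16, adjusted p = 0.0435) rests on overlapping libraries and was lost without 0 h replicate 1 or 2 or 1 h replicate 2 or 3 (0.29 to 0.39).

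Slc1a5, the glutamine and neutral amino acid transporter ASCT2, fell the most of all members. It was at 97.5, 117 and 108 FPKM at 0 h, then 59.2, 57.7 and 85.0 (1 h), 50.8, 47.2 and 54.5 (6 h) and 44.4, 46.0 and 19.2 (24 h). It was back at 82.8, 133 and 92.9 FPKM at 144 h, overlapping 0 h and lying above every 24 h library. The log2 changes from 0 h were -0.68 ± 0.22 at 1 h (SE; adjusted p = 0.0159, limma), -1.06 ± 0.22 at 6 h (adjusted p = 0.000222) and -1.62 ± 0.22 at 24 h (adjusted p = 4.32e-07), and 144 h was 1.54 ± 0.22 above 24 h (adjusted p = 3.6e-06). Leaving out any single library kept the 6 and 24 h calls and that between 144 and 24 h, and the 1 h call was lost without 0 h replicate 2 or 1 h replicate 1 or 2 (-0.58 to -0.62). With the stromal mean as a covariate the rise from 24 to 144 h was 1.35 and still called (adjusted p = 0.015), whereas the 24 h difference was -1.32 and not called (adjusted p = 0.24). Under blood-cell scaling its 24 h change was 0.58 and that from 24 to 144 h -0.18, neither called, against all-gene medians of 1.76 and -1.37.

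Slc1a4, its serine and alanine paralog ASCT1, rose. It was at 11.1, 10.9 and 11.7 FPKM at 0 h, then 21.6, 19.6 and 15.5 (6 h) and 17.7, 26.6 and 30.6 (72 h). All libraries of 6 and 72 h lay above 0 h, with log2 changes of 0.69 ± 0.21 (SE; adjusted p = 0.0104, limma) and 1.05 ± 0.21 (adjusted p = 0.000337). The 6 h call was lost without 6 h replicate 1 (0.59). Slc7a1, the cationic amino acid transporter CAT-1, peaked at 2 h, with 36.1, 35.0 and 37.7 FPKM against 21.5, 25.1 and 25.2 (0 h) and no overlap (0.58, adjusted p = 0.0011). It was at 28.8, 25.1 and 28.4 FPKM at 6 h and 18.4, 15.6 and 17.8 (24 h), again with no overlap, and was the only member of 39 called between 6 and 24 h (-0.64 ± 0.13, adjusted p = 0.00922). That call held without any single library and with the stromal mean as a covariate (-0.66, adjusted p = 0.0041), and under blood-cell scaling it was -0.06 against an all-gene median of 0.49.

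The remaining transporters showed small differences. Slc7a5, the leucine transporter LAT1, was at 53.9, 63.3 and 69.8 FPKM at 0 h, then 43.9, 45.2 and 63.4 (1 h), 50.4, 55.0 and 63.9 (6 h) and 45.4, 47.2 and 39.5 (24 h). It lay below all of 0 h at 24 h without passing (log2 change -0.49 ± 0.22, SE; adjusted p = 0.0689, limma) and was called lower at 48 h (-0.60, adjusted p = 0.0284), with 33.3, 48.8 and 49.6 FPKM at 72 h and 47.5, 80.8 and 46.9 (144 h). Slc38a2 (SNAT2), which carries small neutral amino acids, was at 72.1, 62.8 and 89.2 FPKM at 0 h, then 76.0, 69.4 and 84.4 (1 h), 76.5, 74.2 and 80.1 (6 h) and 99.1, 97.3 and 82.3 (24 h). Its 24 h change of 0.32 ± 0.12 (adjusted p = 0.0327) rests on overlapping groups and was lost without 0 h replicate 1 or 2 or 24 h replicate 1 or 2 (0.20 to 0.30). At 48 h it was at 103, 90.4 and 124 FPKM, above all of 0 h (0.50, adjusted p = 0.0014). It was at 90.0, 85.6 and 93.3 FPKM at 72 h and 74.2, 70.1 and 91.8 (144 h), overlapping 0 h. Slc6a9, a glycine transporter whose exons share 1429 bases with Ccdc24 on the other strand, had no call at a single time against 0 h. With the stromal covariate it was called lower at 144 h (-1.21, adjusted p = 0.033).

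Cytosolic tRNA synthetases did not move as one group. Tars, for threonine, rose most, from 44.7, 48.7 and 56.1 FPKM at 0 h to 91.8, 93.6 and 98.0 (6 h) and 101, 98.1 and 113 (8 h), and was at 68.6, 73.5 and 78 (24 h). None of these later libraries overlaps 0 h. The log2 changes were 0.91 ± 0.15 at 6 h (SE; adjusted p = 1.26e-05, limma), 1.05 at 8 h (adjusted p = 1.4e-06) and 0.55 ± 0.15 at 24 h (adjusted p = 0.00343), and the 6 and 24 h calls held without any single library. At 144 h it was at 54.8, 56.7 and 38.8 FPKM, below 24 h by 0.56 ± 0.15 (adjusted p = 0.00467), a call lost without 144 h replicate 3 (-0.39). Aars, for alanine, was at 34.8, 34.9 and 43.8 FPKM at 0 h, then 35.9, 39.1 and 44.9 (1 h), 48.6, 60.4 and 61.9 (6 h) and 57.3, 81.6 and 71.6 (12 h). The 6 and 12 h libraries lay above all of 0 h, with changes of 0.58 ± 0.20 (adjusted p = 0.025) and 0.87 (adjusted p = 0.00091). The 6 h call was lost without 0 h replicate 1 or 2 or 6 h replicate 2 or 3 (0.51 to 0.53), and Aars was at 44.6, 57.4 and 40.2 FPKM at 24 h, then 30.9, 45.2 and 55.2 (72 h) and 37.7, 48.5 and 28.4 (144 h) with no call. Exons of Aars share 1326 bases with Exosc6 on the same strand.

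Other synthetases fell. Yars, for tyrosine, was at 40.5, 57.3 and 49.7 FPKM at 0 h, then 27.2, 34.9 and 37.2 (1 h) and 28.4, 29.1 and 18.9 (24 h). Iars, for isoleucine, was at 45.8, 39.4 and 45.3 FPKM at 0 h, then 26.0, 26.4 and 30.3 (1 h) and 25.3, 29.5 and 21.0 (24 h). Neither gene's 1 or 24 h libraries overlap those of 0 h. Yars fell by 0.55 ± 0.16 at 1 h (SE; adjusted p = 0.00783, limma) and by 0.93 ± 0.16 at 24 h (adjusted p = 1.74e-05), and Iars by 0.64 ± 0.17 (adjusted p = 0.00378) and 0.77 ± 0.17 (adjusted p = 0.000374). The 1 h call of Yars was lost without 0 h replicate 2 (-0.44) or 1 h replicate 1 (-0.42), and its 6 h call (-0.48 ± 0.16, adjusted p = 0.018) without 0 h replicate 2 (-0.36) or 6 h replicate 2 (-0.41). Both genes were higher at 144 than at 24 h, by 0.53 ± 0.16 and 0.57 ± 0.17 (adjusted p = 0.00998 and 0.00901), calls lost without 24 h replicate 3 (0.34 and 0.45) and, for Yars, also without 144 h replicate 2 (0.44).

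Cars, for cysteine, fell by 0.51 ± 0.16 at 6 h (SE; adjusted p = 0.0111, limma) and 0.54 ± 0.16 at 24 h (adjusted p = 0.00615), from 38.1, 42 and 40.4 FPKM to 24.4, 29.2 and 30.7 and then to 25.7, 31.5 and 25.0, with no overlap; the 6 h call was lost without 6 h replicate 1 (-0.41). Kars, for lysine, was at 88.2, 86.6 and 77.9 FPKM at 0 h and 62.2, 66.0 and 71.4 (1 h), with no overlap, and fell by 0.34 ± 0.12 (adjusted p = 0.0373), a call lost without 0 h replicate 1 or 2 or 1 h replicate 1 or 2 (-0.29 to -0.33). Nars, for asparagine, was at 83.9, 73.0 and 89.3 FPKM at 0 h, then 57.4, 60.5 and 62.9 (24 h) and 50.9, 66.0 and 46.6 (72 h), with no overlap. Its changes were -0.44 ± 0.17 at 24 h (adjusted p = 0.0389), lost without any of 0 h replicates 1 and 3 or the 3 libraries of 24 h (-0.37 to -0.47), and -0.59 ± 0.17 at 72 h (adjusted p = 0.00938), lost without 72 h replicate 3 (-0.49). Iars at 72 h (-0.45 ± 0.17, adjusted p = 0.0479) was lost without any 0 h library or 72 h replicate 2 or 3 (-0.38 to -0.51). Lars, for leucine, was called at 24 h (-0.65 ± 0.24, adjusted p = 0.0262) but not without 0 h replicate 1 or 3 (-0.61 and -0.56) or 24 h replicate 3 (-0.36).

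Gars, Wars and Hars, for glycine, tryptophan and histidine, had no call against 0 h at any single time. Gars was at 74.9, 86.7 and 82.4 FPKM at 0 h, then 67.2, 68.1 and 79.4 (1 h), 88.5, 102 and 99.9 (6 h) and 78.9, 74.6 and 50.7 (24 h). Its 6 h libraries lay above 0 h, with a log2 difference of 0.25 ± 0.16 that did not pass (SE; adjusted p = 0.223, limma). It was at 68.0, 89.7 and 82.0 FPKM at 72 h and 74.4, 106 and 75.8 (144 h), overlapping 0 h. Wars was at 27.3, 20.9 and 29.8 FPKM at 0 h, then 22.2, 22.9 and 22.0 (1 h), 28.0, 34.1 and 34.6 (6 h) and 22.5, 28.8 and 15.7 (24 h), overlapping throughout, and at 27.7, 28.8 and 27.5 (72 h) and 33.6, 30.2 and 18.3 (144 h). Hars was at 34.9, 31.3 and 33.4 FPKM at 0 h, then 23.2, 24.3 and 32.9 (1 h), 30.2, 27.2 and 54.0 (6 h) and 31.8, 35.6 and 28.7 (24 h), again overlapping, and at 32.0, 30.1 and 23.8 (72 h) and 40.6, 32.9 and 22.1 (144 h). Its exons share 195 bases with Hars2 on the other strand. Mars, for methionine, was called at 10 and 12 h (0.37 and 0.61, adjusted p = 0.045 and 0.0014). Sars and Dars, for serine and aspartate, were called lower at 2 h (-0.43 and -0.58, adjusted p = 0.019 and 0.014), Sars also at 4, 48 and 96 h, and Eprs at no time.

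When the stromal mean was a covariate, a fit that called hardly any gene of the table against 0 h before 144 h, no synthetase was called at 1, 6, 24, 72 or 144 h. The 24 h changes were then -0.73 for Yars, -0.26 for Iars, -0.85 for Cars and 0.36 for Tars (adjusted p = 0.38, 0.81, 0.28 and 0.70, limma). Under blood-cell scaling all 15 synthetases were called higher at 6 and 24 h, beside 70.7% and 80.3% of all genes, with medians of 1.65 and 1.93 beside all-gene medians of 1.22 and 1.76. Within the code runs the 6 h change of Tars was 1.02, 0.93 and 0.79 for replicates 1, 2 and 3, and that of Aars 0.47, 0.77 and 0.49.

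Of 8 other cytosolic synthetase and complex genes, 2 were higher and 2 lower at 1 h, 2 and 1 (6 h), 2 and 3 (24 h), 1 and 0 (72 h) and 1 and 0 (144 h). Of all genes tested 16.8% were higher and 15.3% lower at 1 h, 19% and 19.2% (6 h) and 20.8% and 22.5% (24 h). The later shares were 17.2% and 8.23% (72 h) and 5.64% and 3.24% (144 h). Aimp2, a scaffold of the multi-synthetase complex, rose by 0.69 ± 0.18 at 1 h and 0.91 ± 0.18 at 24 h (SE; adjusted p = 0.004 and 0.00013, limma), and Rars, for arginine, by 0.44 ± 0.13 and 0.57 ± 0.13 (adjusted p = 0.011 and 0.00076). Qars, for glutamine, fell by 0.36 ± 0.13 at 1 h and 0.68 ± 0.13 at 24 h (adjusted p = 0.038 and 0.00012), and Vars, for valine, by 0.61 ± 0.20 and 0.62 ± 0.20 (adjusted p = 0.017 and 0.01). Of the 17 mitochondrial synthetases, which charge tRNA inside the organelle, 0 were higher and 4 lower at 1 h, 0 and 3 (6 h), 0 and 5 (24 h) and 0 and 0 (144 h) by limma. At an unadjusted p under 0.05 the counts were 0 and 7, 0 and 3, 0 and 5 and 1 and 0. No share of all genes was computed at that threshold. Pars2 fell most at 1 h (-1.75 ± 0.32, adjusted p = 8.4e-05) and Hars2 at 24 h (-1.29 ± 0.28, adjusted p = 0.00038). From 24 to 144 h 8 of the 17 were higher and 0 lower, led by Mars2 (1.37 ± 0.36), Aars2 (1.17 ± 0.31) and Hars2 (0.94 ± 0.28, adjusted p = 0.0034, 0.004 and 0.0096). In the same step 17.4% of all genes were called higher and 15.6% lower. Over that interval all 18 blood-cell genes were higher and 20 of the 21 stromal genes lower.

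Of 16 other reported ATF4 targets that were tested, 4 were higher and 1 lower at 1 h, 8 and 1 (6 h), 5 and 4 (24 h), 7 and 2 (72 h) and 5 and 1 (144 h). Of all genes tested 16.8% were higher and 15.3% lower at 1 h, 19% and 19.2% (6 h) and 20.8% and 22.5% (24 h). The later shares were 17.2% and 8.23% (72 h) and 5.64% and 3.24% (144 h). Aldh1l2, a mitochondrial folate enzyme, rose by 1.89 ± 0.27 at 1 h and 2.42 ± 0.27 at 24 h (SE; adjusted p = 2.7e-06 and 3.2e-08, limma). Slc38a1 (SNAT1) fell by 1.07 ± 0.25 at 1 h and 1.91 ± 0.25 at 6 h (adjusted p = 0.0016 and 4.4e-07). Pck2, mitochondrial phosphoenolpyruvate carboxykinase, and Herpud1, of endoplasmic reticulum protein degradation, fell by 1.36 ± 0.30 and 1.24 ± 0.20 at 24 h (adjusted p = 0.00039 and 7e-06).

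Between 1 and 12 h the stromal and blood-cell lists moved less than between 0 and 1 h. By limma 6 members were called higher and 0 lower, while 4.88% of all genes were called higher and 3.73% lower. At an unadjusted p under 0.05 the members numbered 10 and 1, with no share of all genes computed at that threshold. This pair of times was chosen after the values had been seen, so its calls describe these libraries. Psph rose from 6.34, 24.4 and 24.1 FPKM to 32.2, 44.9 and 45.3, Shmt2 from 87.3, 114 and 132 to 155, 188 and 198, and Aars from 35.9, 39.1 and 44.9 to 57.3, 81.6 and 71.6. Tars rose from 53.5, 58.8 and 62.9 FPKM to 80.2, 85.8 and 99.4, Mars from 43.5, 36.2 and 42.2 to 53.5, 64.2 and 66.0 and Kars from 62.2, 66.0 and 71.4 to 95.8, 88.7 and 96.4. In each of the 6 genes every 12 h library lay above every 1 h library. The log2 changes were 1.31 ± 0.35 for Psph (SE; adjusted p = 0.0165, limma), 0.79 ± 0.20 for Aars (adjusted p = 0.0136), 0.70 ± 0.19 for Shmt2 (adjusted p = 0.0197), 0.59 ± 0.15 for Tars (adjusted p = 0.0128), 0.58 ± 0.15 for Mars (adjusted p = 0.0136) and 0.49 ± 0.12 for Kars (adjusted p = 0.0123).

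These 6 belong to serine and glycine synthesis and to the synthetases. Without the replicate block no regulator or transporter gene was called in the same step. The difference was -0.28 ± 0.15 for Atf4 (SE; adjusted p = 0.259, limma), 0.31 ± 0.34 for Ddit3 (adjusted p = 0.63) and -0.16 ± 0.30 for Chac1 (adjusted p = 0.814), none of which passed. The group medians were 0.30 for synthesis genes, 0.18 for synthetases, 0.16 for regulators and stress effectors and 0.09 for transporter genes, with 0.04 over all genes. With the stromal mean as a covariate the 6 genes were still called, at 1.25 for Psph, 0.66 for Aars, 0.70 for Shmt2, 0.55 for Tars, 0.55 for Mars and 0.54 for Kars (adjusted p = 0.0062 to 0.043), while 3.65% of all genes were called higher. Of the stromal genes 4 of 21 were higher in this step (median 0.55) and 2 of 18 blood-cell genes lower (median -0.54). Blood-cell scaling gave 11 members called higher and 0 lower (19.3% and 1.14% of all genes), with an all-gene median of 0.54. With the replicate number as a block, which pairs the libraries here, 8 were higher (6.59% of all genes). The added ones were Psat1 (0.60, adjusted p = 0.033, limma) and Eif4ebp1, of the regulators and stress effectors (0.65, adjusted p = 0.041). Single libraries decide the count: it was 1 without 1 h replicate 1, 2 without 12 h replicate 2 and 0 without 12 h replicate 3. Those fits called 326, 318 and 293 of all genes higher, against 679 with all libraries. Without 1 h replicate 1, the library with Psph at 6.34 FPKM, its difference was 0.71 and did not pass (adjusted p = 0.203). Within the code runs that hold both times, Aars was higher by 0.66 (replicate 1) and 1.04 (replicate 2), and Tars by 0.58 and 0.54.

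**Figure D4:**
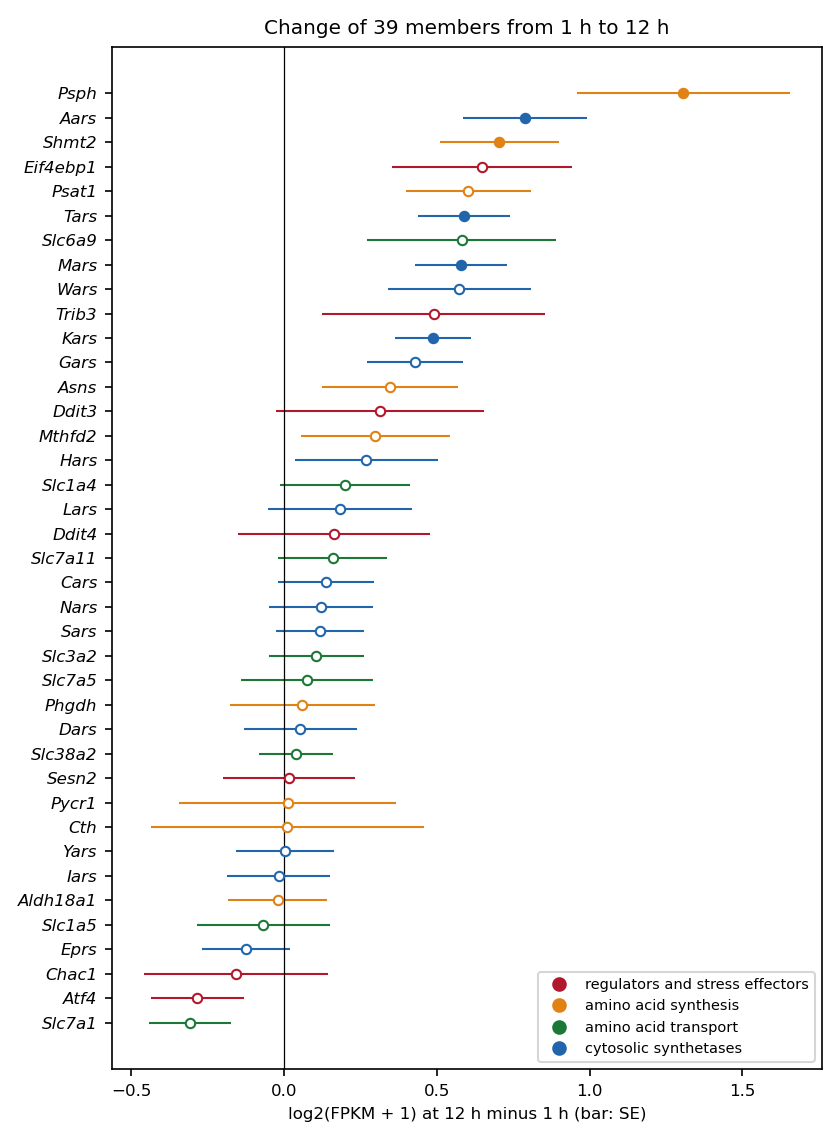
Difference between 12 and 1 h of each of the 39 tested members on the log2(FPKM + 1) scale, with its SE; filled points passed the test, and colours mark role. Psph, Aars, Shmt2, Tars, Mars and Kars passed, 32 of 39 members are above 0, and Atf4 and Chac1 are below it.

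From 24 to 144 h 5 members were higher and 1 lower. Besides Slc1a5, Iars, Yars and Tars, given above, these were Aldh18a1, from 17.5, 24.5 and 14.4 FPKM to 26.6, 36.3 and 28.2 without overlap (log2 change 0.68 ± 0.16, SE; adjusted p = 0.00141, limma), and Slc7a1, from 18.4, 15.6 and 17.8 FPKM to 19.4, 26.7 and 23.1 (0.39 ± 0.13, adjusted p = 0.0244). The Aldh18a1 call held without any single library, and that of Slc7a1 was lost without 24 h replicate 2 or 144 h replicate 2 or 3 (0.28 to 0.38). The number higher was 8 without 24 h replicate 1 and 3 without 24 h replicate 3 or 144 h replicate 2. The number lower was 3 without 24 h replicate 3. Of all genes 4649 (2669 of them higher) were called without 24 h replicate 1 and 3451 (1454) without 24 h replicate 3. Without 144 h replicate 2 they were 3451 (1864), and with all libraries 4581 (2417). Blood-cell scaling gave 37 members called lower and 0 higher (75.9% and 1.53% of all genes), with an all-gene median of -1.37, and with the stromal mean as a covariate Slc1a5 alone was called higher (1.98% of all genes). Psat1, Phgdh, Mthfd2, Asns and the regulators passed no test in this step. Leaving out 1 library gave calls for Phgdh (0.72 without 24 h replicate 1, 0.71 without 144 h replicate 3), for Mthfd2 (0.70 to 0.71 without 24 h replicate 1 or 2 or 144 h replicate 3) and for Chac1, which was lower (-0.83) without 24 h replicate 3.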

How the data were processed

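Poly(A) RNA libraries of the 44 samples were sequenced, and the authors deposited FPKM values per gene, made with TopHat2 2.1.0 and Cufflinks 2.1.1 on mm9, per the submitters' processing notes. The file calls these FPKM "corrected", and what was corrected is not given in the sources used here. No filter other than 1 FPKM in at least 3 of 42 libraries was applied. Means per time point were compared with limma 3.58.1 (R 4.3.3) on log2(FPKM + 1), with a mean-variance trend, 1 shared spread over 14 time points and Benjamini-Hochberg adjustment over 13907 genes. The 120 and 168 h libraries were left out of the fit. An exact permutation test of 3 against 3 cannot go below p = 0.1 and was not used. Replicate correlations ran from 0.893 to 0.944.

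The 40 members and the lists were chosen with earlier results of these data known, from gene names and textbook knowledge. Library values are given for 15 members whatever their result, and, for each comparison, for up to 3 called members that rose most and 3 that fell most without overlap. Alternatives were another pseudocount, filters, scalings, blocks, a stromal covariate, a fold minimum and left-out libraries. Deviations of same-numbered libraries correlated above 0.1 in all 3 pairs for 12 against 1 h (0.110, 0.129 and 0.104). By that cutoff this comparison counts as paired, and the others reached it in at most 2 of 3 pairs. The cutoff divides like values, as 144 against 0 h had 0.0939, 0.108 and 0.142. The fit was tested on simulated data, with 71 of 100 genes changed 2-fold recovered at 1 h against 0 h among 13907. It also called 11 unchanged genes. The simulated noise was independent between libraries, and the changed genes were taken only above a set 0 h level. The recovery may therefore not hold for low genes or for the spread of these libraries. Figures were drawn with Python 3.11.15 and matplotlib 3.10.9.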

Additional observations from a re-analysis of the deposited data

Results flagged for a closer look

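In the single 120 h library, which no test used, Ddit3 stood at 113 FPKM and Slc1a4 at 25.3 FPKM. Both are over 2-fold above the highest 0 h library (32.9 and 11.7 FPKM). With 1 library at that time there is no replicate check. The 96 h libraries held Ddit3 at 33.1, 54.8 and 81.0 FPKM and the 168 h library at 58.8.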

How the results depend on the processing

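The 1, 6, 24 and 72 h calls of Ddit3, the 1 and 6 h calls of Atf4 and Chac1, the 6 and 24 h calls of Tars and Slc1a5 and those of Slc7a11 at 6, 24, 72 and 144 h held without any single library. Of 936 single-gene changes recomputed without 1 library, 366 were called with all libraries and none of these changed sign. Over all 936, 48 changed sign, none of them called either way. Raising the filter to 5 FPKM or the pseudocount to 5 changed the outcome, called or not called, of none of 156 recorded single-gene changes. The labels do not tie replicates to cultures, the read depth is unknown, and 3 libraries a time point limit the precision. Where calls were lost or gained and no value is given, the cause was not tested.

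Leaving out 1 library or 1 replicate number gave 8 to 27 members by the F test. Members called higher then numbered 3 to 6 (1 h), 5 to 9 (6 h), 1 to 8 (24 h), 2 to 6 (72 h), 0 to 2 (144 h), 2 to 8 (144 against 24 h) and 0 to 7 (12 against 1 h). Members called lower numbered 0 to 10 (1 h), 2 to 6 (6 h), 7 to 10 (24 h), 0 to 3 (72 h), 0 to 4 (24 against 6 h) and 1 to 3 (144 against 24 h). The calls over all genes moved in these fits too. At 1 h they ran from 1636 (without replicate number 2) to 4615 (without replicate number 3). At 12 against 1 h they ran from 185 (without replicate number 2) to 1067 (without 12 h replicate 1).

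With a 2-fold minimum, 2 members were higher at 1 h, 3 (6 h), 2 (24 h), 1 (144 h), 1 (144 against 24 h) and 1 (12 against 1 h). Under that minimum 0 were lower at 1 h, 1 (6 h), 2 (24 h) and 0 (72 h), at 24 against 6 h and at 144 against 24 h. The share of all genes under that minimum was not computed. With no filter, no trend or a pseudocount of 0.1, 1 was lower at 72 h, and with upper-quartile scaling 7. Fitting only the time points compared gave 2 higher at 24 h, 3 (72 h), 0 (144 h) and at 144 against 24 h, and 2 (12 against 1 h). It gave 6 lower at 24 h, 1 (72 h) and 0 (24 against 6 h) and 144 against 24 h, with fewer libraries behind each spread. Of 13907 genes these fits called 3860 at 24 h (2129 of them higher), 1689 at 72 h (1208) and 137 at 144 h (81). They called 7 at 24 against 6 h (2), 1511 at 144 against 24 h (616) and 429 at 12 against 1 h (220).

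The replicate block gave 8 members lower at 1 h, 5 (72 h), 2 (144 h) and 3 (24 against 6 h), and it lost no call. Of 13907 genes it called 4997 at 1 h (2509 of them higher) and 3985 at 72 h (2586). It called 1667 at 144 h (1035) and 437 at 24 against 6 h (197). In that fit the regulator Sesn2 was called lower at 144 h (-0.62, adjusted p = 0.0396, limma). Outside 12 against 1 h, the deviations of same-numbered libraries did not correlate above 0.1 in every pair. Same-numbered libraries of 1 and 6 h do share a code run with those of 0 h. Replicate 3 of 12 h shares none with replicate 3 of 1 h. With the code run as a block 10 were lower at 1 h, 11 higher at 72 h, 2 lower at 144 h, 2 lower at 24 against 6 h and 3 higher at 144 against 24 h. Of 13907 genes that fit called 5338 at 1 h (2629 of them higher), 3771 at 72 h (2614) and 1619 at 144 h (1203). It called 401 at 24 against 6 h (187) and 3917 at 144 against 24 h (2337). No run holds both 0 h and 72 or 144 h libraries, so in that fit those comparisons rest on libraries of other times.

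With the stromal mean as a covariate 14 members differed by the F test (27.1% of all genes), 0 were higher and 0 lower at 1, 6, 24 and 72 h (at most 0.144% of all genes higher and 0.0288% lower), 1 was higher and 1 lower at 144 h, and 1 was higher and 0 lower at 144 against 24 h. Directions reversed at 1 h for Ddit3 (-0.10), Phgdh (0.034) and Slc3a2 (-0.14). They reversed at 6 h for Ddit3 (-0.28), Trib3 (-0.94), Chac1 (-0.12), Phgdh (0.053), Slc3a2 (-0.19), Slc1a4 (-0.25) and Aars (-0.17). They did so at 24 h for Ddit3 (-0.95) and Chac1 (-0.75) and at 72 h for Trib3 (-0.66) and Chac1 (-0.15), none of them called.

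Scaled to the blood-cell genes, which moves all genes, 22 members were higher at 1 h, 37 (6 h), 37 (24 h), 30 (72 h), 11 (12 against 1 h) and 0 (144 against 24 h), where 37 were lower, and 0 were lower at 1, 6, 24 and 72 h and at 24 against 6 h. Reversed values at 1 h were Psat1 1.07, Phgdh 0.47, Slc1a5 0.42, Gars 0.92, Iars 0.44, Yars 0.53 and Kars 0.77. At 6 h they were Phgdh 0.87, Mthfd2 1.45, Aldh18a1 1.06, Slc7a5 1.46, Slc1a5 0.55, Cars 1.07 and Yars 1.11. At 24 h they were Asns 2.01, Phgdh 1.24, Mthfd2 1.40, Aldh18a1 1.14, Slc7a5 1.71, Slc7a1 1.68, Slc1a5 0.58, Cars 1.63, Gars 1.93, Iars 1.40, Lars 1.5, Nars 1.77, Wars 1.90, Yars 1.24 and Hars 2.11. At 72 h they were Phgdh 0.63, Gars 1.07, Iars 0.64, Nars 0.51 and Hars 0.85. At 144 against 24 h they were Phgdh -1.25, Mthfd2 -1.18, Aldh18a1 -1.0, Slc7a5 -1.37, Slc7a1 -1.29, Slc1a5 -0.18, Gars -1.40, Iars -1.13, Wars -1.41 and Yars -1.17.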
